A study of Mus musculus with 31 samples.

Results

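The let-7 guide arms are the 9 mature mouse miRNAs mmu-let-7a-5p, mmu-let-7b-5p, mmu-let-7c-5p, mmu-let-7d-5p, mmu-let-7e-5p, mmu-let-7f-5p, mmu-let-7g-5p, mmu-let-7i-5p and mmu-miR-98-5p (written without mmu- below), the strands of the let-7 hairpins that are loaded as guides. They were taken by name, as the 9 of 650 miRNA entries on a 1-colour mouse miRNA array that carry these names, with all of their probes (18 of 1857), and the family was picked with earlier results of these data known. Their levels were measured in whole lung of female mice of the inbred strain BALB/c after exposure to cigarette smoke or to room air. The 31 arrays fall into 8 groups: 4 weeks Smoke and 4 weeks Control, 6 weeks Smoke and 6 weeks Control, 8 weeks Smoke and 8 weeks Control, and 12 weeks Smoke and 12 weeks Control, with 4 arrays each except for 3 in 12 weeks Smoke. All groups share strain, sex and tissue, while the age of the mice and the smoke dose are not stated in the sources used here. Nothing in the labels says that each array is a mouse of its own, so the p-values reflect the spread among these samples, part of which may be technical.

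The let-7 miRNA, first found in the worm Caenorhabditis elegans as a regulator of developmental timing, is one of the most conserved animal miRNAs. A guide arm is loaded into an Argonaute protein and represses messenger RNAs that pair with its seed, the stretch near its 5′ end that is the main determinant of targeting. In mammals the precursors are held back from maturation by the RNA-binding proteins LIN28A and LIN28B in stem cells, and mature let-7 accumulates in differentiated tissues, adult lung among them. Known targets in mammals include Hmga2, Ras family genes and Lin28 itself. Because all family members carry the same seed, they are usually treated as sharing most of their targets.

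The mature sequences show how little the family members differ, which bears on both their shared targeting and on how far an array can separate them. They are given from RefSeq 5′ to 3′, with bases 2 to 8, the seed, in capitals.
let-7a-5p: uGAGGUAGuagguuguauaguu
let-7b-5p: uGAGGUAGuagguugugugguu
let-7c-5p: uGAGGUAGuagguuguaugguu
let-7d-5p: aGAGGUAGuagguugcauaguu
let-7e-5p: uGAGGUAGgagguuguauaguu
let-7f-5p: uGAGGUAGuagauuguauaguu
let-7g-5p: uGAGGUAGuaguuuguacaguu
let-7i-5p: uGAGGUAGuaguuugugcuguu
miR-98-5p: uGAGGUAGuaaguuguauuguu
All 9 matched the RefSeq table and are 22 bases long, with 1 shared seed, GAGGUAG. Outside the seed, the differences from let-7a-5p, with positions counted from 1 at the 5′ end and the base of let-7a-5p first, are A17G and A19G in let-7b, A19G in let-7c, U1A and U16C in let-7d, U9G in let-7e, G12A in let-7f, G12U and U18C in let-7g, G12U, A17G, U18C and A19U in let-7i, and G11A and A19U in miR-98. let-7i is thus the farthest from let-7a, at 4 bases. let-7b has 10 G or C bases, let-7c, let-7d, let-7e and let-7i have 9, let-7a and let-7g have 8, and let-7f and miR-98 have 7. 2 other mouse miRNAs in the table share the seed, let-7k and miR-1961, and neither is on the array.

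The 9 guide arms come from 12 hairpin genes on 7 chromosomes (RefSeq, GRCm38.p6). On chromosome 13, minus strand, Mirlet7d (chr13:48536012-48536114), Mirlet7f-1 (chr13:48537829-48537917) and Mirlet7a-1 (chr13:48538179-48538272) lie within 1 cluster, with 261 bases between Mirlet7f-1 and Mirlet7a-1. Mirlet7c-2 (chr15:85706603-85706697) and Mirlet7b (chr15:85707319-85707403) lie 621 bases apart on the plus strand of chromosome 15. Mirlet7f-2 (chrX:151912346-151912428) and Mir98 (chrX:151913214-151913321) lie 785 bases apart on the plus strand of the X chromosome. The second copies Mirlet7a-2 (chr9:41536716-41536811) and Mirlet7c-1 (chr16:77599657-77599750) and the single gene Mirlet7e (chr17:17830352-17830444), all on the plus strand, neighbour genes of the miR-99/100 and miR-125 families: Mir100 lies 5211 bases from Mirlet7a-2, Mir99a 656 bases from Mirlet7c-1 and Mir125a 367 bases from Mirlet7e. Mirlet7g (chr9:106178840-106178927, plus strand) and Mirlet7i (chr10:122985640-122985724, minus strand) have no other let-7 gene beside them. let-7a, let-7c and let-7f are each made by 2 of these genes, and the array reads only their sum.

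All 9 were detected on each of the 31 arrays, each with 2 probes of 10 spots, and none of their spots was saturated. Each value below is the log2 of the processed signal of the brighter probe over its array's 75th percentile, which makes arrays comparable but does not make one probe's level comparable with another's. A difference is smoke minus control on this log2 scale with the standard error (SE) of a limma fit over all 273 miRNAs tested, and a miRNA is said to have risen or fallen when its p-value, adjusted by Benjamini and Hochberg over those 273, is at most 0.05. In bulk lung, a change in the number of cells of one type and a change in RNA per cell cannot be told apart. Smoke arrays lie in one row of every slide and control arrays in the other, so array position and smoke cannot be told apart either. Each duration likewise lies in its own column of every slide, so differences between durations cannot be told apart from array column.

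Lung markers were present on every array: 2 of 2 endothelial, 5 of 5 epithelial and 3 of 3 multiciliated miRNAs were detected throughout. By the mean of the 9 guide arms, 2 arrays stand apart. On 4 weeks Smoke arrays 2 and 3 the mean log2 value of the 9 guide arms was 3.23 and 2.87, against 2.20 to 2.68 on the 29 others. Before scaling, the family mean on these arrays was 13.46 and 13.17, below those of the other 2 arrays of the group (13.74 and 13.52) and within the 4 weeks Control range of 12.81 to 13.70. Their 75th percentiles were 1201 and 1259, against 2441 and 2249 on 4 weeks Smoke arrays 1 and 4 and 1377 to 2875 on the 4 weeks Control arrays. Guide-arm results that rest on these arrays are given with and without them.

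Averaged over the 4 durations with equal weight, let-7i and miR-98 rose in smoke-exposed lung and no guide arm fell. let-7i was 0.19 ± 0.043 log2 higher (SE, 15 smoke and 16 control arrays, 1.14-fold, limma adjusted p 0.00124), and miR-98, the member whose gene lies beside Mirlet7f-2, was 0.16 ± 0.058 log2 higher (1.12-fold, adjusted p 0.0436). The other 7 did not pass: let-7f 0.14 ± 0.06, let-7g 0.087 ± 0.041, let-7a 0.072 ± 0.081, let-7d 0.068 ± 0.078, let-7e 0.018 ± 0.088, let-7c -0.048 ± 0.094 and let-7b -0.093 ± 0.097 log2. So 2 of 9 rose, beside 15.4% of all 273 miRNAs that rose and 12.1% that fell, and the median difference of the 9 was 0.072 log2 beside -0.0048 over all miRNAs. All of these differences are small, from 0.938-fold to 1.14-fold. let-7b and let-7c passed as lower in 5 and 4 of 18 alternatives, among them quantile scaling (let-7b -0.24 log2, adjusted p 0.00356, and let-7c -0.35 log2, adjusted p 1.62e-06) and the deposited table (-0.15 and -0.16 log2 in that order).

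Over all durations let-7i lay at 2.11 to 2.53 on the smoke arrays (median 2.38), against 1.92 to 2.38 on the control arrays (median 2.22). At 4 weeks its log2 values were 2.50, 2.47, 2.27 and 2.38 on the smoke arrays, against 2.38, 2.28, 2.25 and 2.05 on the control arrays. At 6 weeks they were 2.38, 2.52, 2.30 and 2.43 in smoke lungs, against 2.29, 2.21, 1.96 and 1.92 in control lungs. So the smoke arrays were the higher at 6 weeks, with no overlap, while at 4 weeks one of them lay inside the control range. At 8 weeks they were 2.19, 2.30, 2.11 and 2.39 in smoke lungs and 2.22, 2.30, 2.13 and 2.15 in control lungs. At 12 weeks they were 2.53, 2.52 and 2.32 in smoke lungs and 2.16, 2.22, 2.29 and 2.22 in control lungs. The groups did not overlap at 12 weeks. At 8 weeks they overlapped, with 1 smoke array above all 4 control arrays and 1 below all of them. Separation with smoke higher was shown by 15.8% of all miRNAs at 6 weeks and by 16.5% at 12 weeks. For let-7i, 13 of 15 smoke arrays lay above the control mean of their own duration. 9 of the 15 smoke arrays lay above all 16 control arrays. In order, its group means were 2.46 in 12 weeks Smoke, 2.41 in both 4 weeks Smoke and 6 weeks Smoke, 2.25 in 8 weeks Smoke, 2.24 in 4 weeks Control, 2.23 in 12 weeks Control, 2.20 in 8 weeks Control and 2.09 in 6 weeks Control. Only the step from 6 weeks Smoke to 8 weeks Smoke, 0.16 log2, was larger than the larger SD of the 2 groups.

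**Figure D1:**
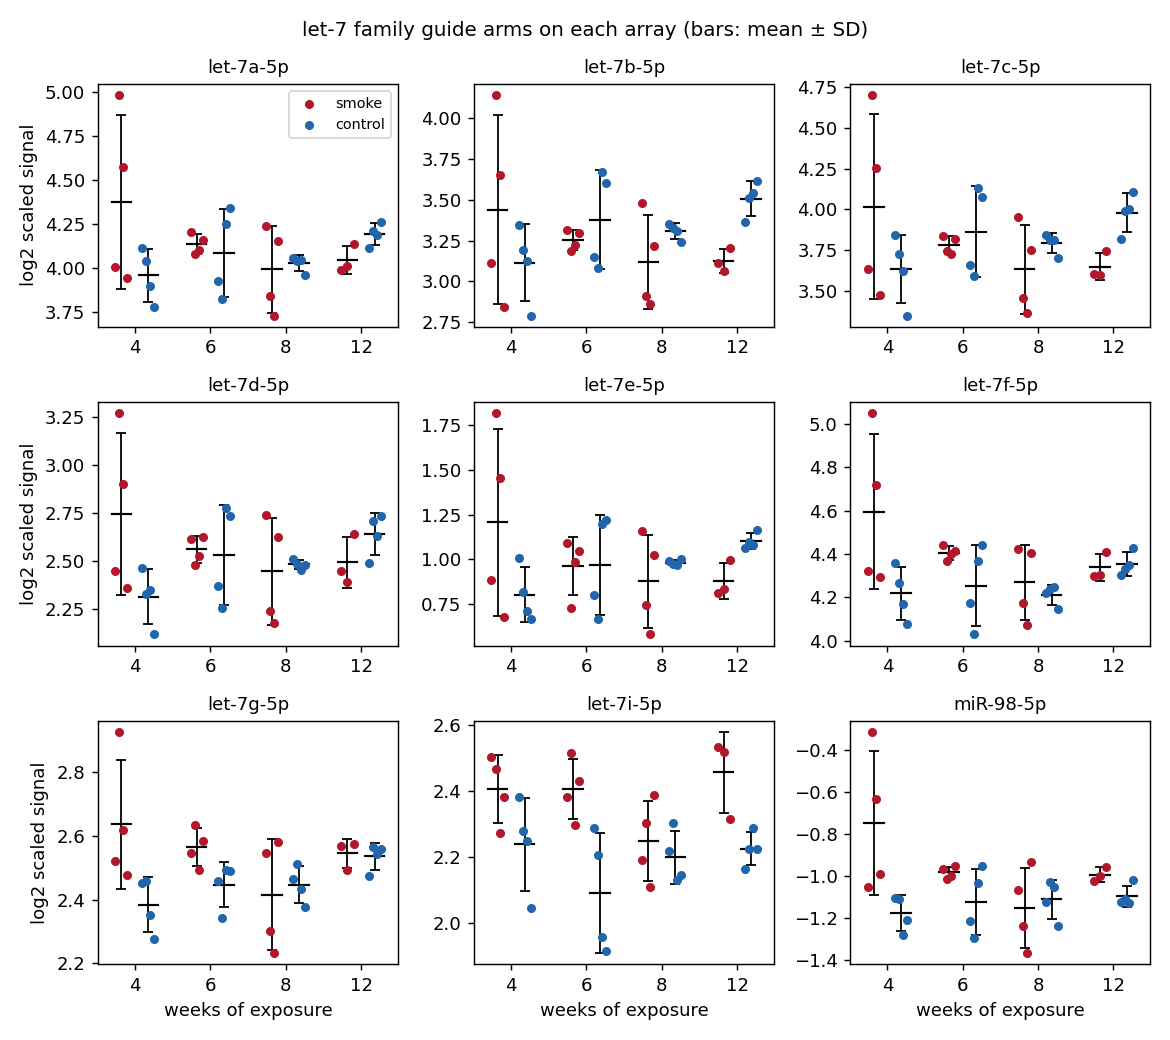
Log2 scaled signal (processed signal over the array's 75th percentile) of the 9 guide arms against weeks of exposure, 1 point per array, smoke in red left of control in blue, with the mean and SD of each group as black bars. The 2 high points of 4 weeks Smoke, arrays 2 and 3, are the highest of that group in 8 of the panels, and let-7i, where they lie at 2.47 and 2.27 among the others, is the exception. Each panel has its own axis, and levels are not comparable between panels.

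The averaged let-7i difference passed with each of the 31 arrays left out in turn (0.17 to 0.21 log2, adjusted p 0.000439 to 0.00329), without 4 weeks Smoke arrays 2 and 3 (0.20 log2, adjusted p 0.00123) and with its dimmer probe (0.23 log2, adjusted p 9.73e-05). Within slides it was 0.13, 0.18, 0.11 and 0.36 log2 on slides 1, 2, 3 and 4, the last over 3 durations. The call was lost with the 75th percentile taken over all probes (0.21 log2, adjusted p 0.105), with another background correction (0.22 log2, adjusted p 0.0888) and with no scaling between arrays (0.044 log2, adjusted p 0.89), and, as change relative to the family mean, it did not pass either (0.12 log2, adjusted p 0.201).

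The averaged miR-98 call was less stable. Over all durations it lay at -1.37 to -0.32 on the smoke arrays (median -0.999), against -1.30 to -0.95 on the control arrays (median -1.12), and 13 of 15 smoke arrays lay above the control mean of their duration. Without 4 weeks Smoke arrays 2 and 3 its averaged difference was 0.089 log2 (adjusted p 0.102), and over 6, 8 and 12 weeks alone it was 0.067 log2 (adjusted p 0.481), where let-7i was 0.20 log2 (adjusted p 0.00414). Leaving out 1 array gave 0.12 to 0.18 log2 (adjusted p 0.011 to 0.0726) and ended the miR-98 call in 19 of 31 cases: smoke arrays 2 and 3 and control arrays 3 and 4 of 4 weeks, smoke arrays 1, 3 and 4 and control arrays 1 and 2 of 6 weeks, smoke arrays 1 and 4 and control arrays 1 and 4 of 8 weeks, and smoke arrays 1, 2 and 3 and control arrays 1, 2 and 3 of 12 weeks. It was also lost with quantile scaling (0.089 log2, adjusted p 0.301), with another background correction (0.078 log2, adjusted p 0.753) and with no scaling between arrays (0.01 log2, adjusted p 0.982). Its within-slide differences were 0.11, 0.25, 0.11 and 0.17 log2. With slide as a block its adjusted p was 0.0603, and let-7i (0.19 log2, adjusted p 0.00026) was then the 1 guide arm that passed. Without 4 weeks Smoke arrays 2 and 3 the average held 1 guide arm that rose, let-7i, and 1 that fell, let-7b (-0.21 ± 0.072 log2, adjusted p 0.0274), beside 17.2% of all miRNAs that rose and 19.4% that fell.

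At 4 weeks, 5 of the 9 guide arms rose and none fell, but the call rests on 2 arrays. let-7d (0.43 ± 0.15 log2), miR-98 (0.43 ± 0.11), let-7a (0.42 ± 0.16), let-7f (0.38 ± 0.12) and let-7g (0.25 ± 0.08) passed, with limma adjusted p of 0.0318, 0.00796, 0.0435, 0.0195 and 0.0212 in that order. let-7e (0.40 ± 0.17), let-7c (0.38 ± 0.18), let-7b (0.32 ± 0.19) and let-7i (0.17 ± 0.084) did not. In the same comparison 28.2% of all 273 miRNAs rose and 11.4% fell. The median of the 9 was 0.38 log2, beside 0.17 log2 over all miRNAs. With slide or replicate number as a block the differences were the same and 4 passed, since let-7a did not (adjusted p 0.0567 and 0.0585).

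For let-7a, the member the other sequences are set against above, the 4-week values were 4.01, 4.98, 4.57 and 3.94 in smoke lungs, against 4.12, 4.04, 3.90 and 3.78 in control lungs. miR-98 had -1.05, -0.32, -0.64 and -0.99 in smoke lungs, against -1.10, -1.11, -1.28 and -1.21 in control lungs. let-7g had 2.52, 2.93, 2.62 and 2.48 in smoke lungs, against 2.45, 2.46, 2.35 and 2.28 in control lungs. Smoke arrays 2 and 3 were the 2 highest for each of these, and only miR-98 and let-7g had all 4 smoke arrays above all 4 control arrays, a separation that 23.4% of all miRNAs showed. Without smoke arrays 2 and 3, no guide arm passed at 4 weeks: let-7a was 0.017 log2, let-7d 0.089, let-7f 0.089, let-7g 0.11 and miR-98 0.15 log2 higher, and 6.23% of all miRNAs still rose. let-7b, let-7c and let-7e were then -0.14, -0.081 and -0.022 log2, and let-7i was 0.21 log2 (adjusted p 0.285).

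Of the 5 calls, that of miR-98 passed with each single array left out (adjusted p 0.00129 to 0.0484), but not with another background correction (0.14 log2, adjusted p 0.461) or with no scaling between arrays (0.35 log2, adjusted p 0.532). With quantile scaling miR-98 alone passed (0.40 log2, adjusted p 0.0223), and let-7a and let-7g were at 0.021 and 0.048 log2. The calls of let-7f and let-7g were lost without smoke array 2, smoke array 3 or control array 4 of that duration, as were those of let-7d and let-7a, which other arrays also decided: control array 2 for let-7d, and control arrays 2 and 3, 6 weeks Smoke 3, 8 weeks Control 3, 12 weeks Control 2 and 12 weeks Control 3 for let-7a. Fitted on the 8 arrays of 4 weeks alone, the differences were the same, with a median of 0.38 log2, and none passed. Without 4 weeks Control arrays 1 and 4 and 8 weeks Smoke array 3, which were high in striated-muscle miRNAs, the median of the 9 was likewise 0.38 log2 and none passed at 4 weeks. None passed relative to the family mean, where let-7g was -0.10 log2.

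The leukocyte, multiciliated and epithelial marker lists did not overlap between the 4-week groups. Those of striated muscle, endothelial, smooth-muscle and erythroid miRNAs did. The summed scaled level of 5 leukocyte miRNAs, all detected on every array, was 5.11 to 8.38 on the 4 smoke arrays, against 8.97 to 9.29 on the 4 control arrays. The 3 multiciliated miRNAs summed to 0.967 to 1.99 on smoke arrays, against 2.21 to 2.61 on control arrays, and the 5 epithelial ones to 6.74 to 8.44 on smoke arrays, against 5.89 to 6.6 on control arrays. The 5 striated-muscle miRNAs, 3 of them present on every array and 1 on none, summed to 1.65 to 1.87 on smoke arrays, against 1.82 to 6.8 on control arrays. miR-122, the liver marker, had log2 values of -6.68, -5.50, -4.70 and -6.74 on smoke arrays 1 to 4, against the floor of -6.74 on the 4 control arrays, and the 2 brain markers were at the floor on all 31. The part of these cells in the let-7 values was not tested.

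At 6 weeks, let-7i rose and the other 8 guide arms did not pass. It was 0.31 ± 0.084 log2 higher (1.24-fold, limma adjusted p 0.0177), from 2.30 to 2.52 on the smoke arrays, against 1.92 to 2.29 on the control arrays. Beside this 1 of 9, 7.69% of all miRNAs rose and 0.366% fell. let-7g was 0.12 ± 0.08 log2 higher and its groups did not overlap either, though only just (2.55, 2.64, 2.49 and 2.58 in smoke lungs, against 2.46, 2.34, 2.49 and 2.49 in control lungs), a separation that 15.8% of all miRNAs showed, but its adjusted p was 0.451. let-7f (0.15 ± 0.12) and miR-98 (0.14 ± 0.11) were in between, and let-7b (-0.12 ± 0.19) was the lowest. The let-7i call was lost without 6 weeks Smoke array 2 or 4 or without 6 weeks Control array 3 or 4, with adjusted p up to 0.0911, in a fit of the 6-week arrays alone (adjusted p 0.1), with the percentile over all probes (0.34 log2, adjusted p 0.348), another background correction (0.31 log2, adjusted p 0.786) or no scaling (0.30 log2, adjusted p 1), and with the scanner's summed signal (0.19 log2, adjusted p 0.153). With quantile scaling let-7i did not pass (0.24 log2, adjusted p 0.0707) while let-7c passed as lower (-0.39 log2, adjusted p 0.00717), and relative to the family mean let-7i was 0.25 log2 (adjusted p 0.299).

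Some marker lists differed between the 6-week groups too. The 5 striated-muscle miRNAs summed to 1.48 to 2 on the smoke arrays, against 0.857 to 0.997 on the control arrays, and among them miR-133a-3p had log2 values of -2.25, -2.68, -2.34 and -2.28 in smoke lungs, against -3.56, -3.40, -3.55 and -3.49 in control lungs. The 5 leukocyte miRNAs summed to 6.4 to 6.78 on smoke arrays, against 7.04 to 9.02 on control arrays, and the 5 epithelial ones to 7.17 to 7.56 on smoke arrays, against 6.4 to 6.87 on control arrays. None of these overlapped, while miR-122 was at the floor on all 8 arrays, and the part of these cells in the let-7i difference was not tested.

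The 4 smoke arrays of 6 weeks lay closely together, at 3.19 to 3.31 for let-7b and 2.30 to 2.52 for let-7i, while the control arrays fell into 2 pairs that ran opposite ways for these members. Control arrays 3 and 4 had the higher let-7b values (3.67 and 3.61, against 3.15 and 3.08 on control arrays 1 and 2) and the lower let-7i values (1.96 and 1.92, against 2.29 and 2.21). The 75th percentiles were 1616 to 2278 on the smoke arrays, against 1446 and 1018 on control arrays 3 and 4 and 2398 and 3725 on control arrays 1 and 2. Relative to the family mean, let-7i lay at -0.69 and -0.74 on control arrays 3 and 4, against -0.11 and -0.095 on control arrays 1 and 2. On 4 weeks Smoke arrays 2 and 3 it lay at -0.76 and -0.59. What sets the pairs of 6 weeks Control arrays apart was not tested.

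At 8 weeks no guide arm rose or fell, where 3.66% of all miRNAs rose and 7.33% fell by limma. The differences ran from -0.19 ± 0.19 log2 for let-7b to 0.056 ± 0.12 for let-7f, and none of the 9 had an unadjusted p under 0.05. Smoke arrays spread more than control arrays: let-7a had 4.24, 3.84, 3.73 and 4.16 in smoke lungs and 4.06, 4.04, 4.05 and 3.96 in control lungs. For let-7a, let-7d, let-7e and let-7g, smoke arrays 1 and 4 lay above all 4 control arrays and smoke arrays 2 and 3 below all 4. With no scaling between arrays all 9 passed as lower at 8 weeks, as did 202 of the 273 miRNAs, whose median was then -0.86 log2. With quantile scaling let-7c passed as lower (-0.42 log2, adjusted p 0.00187), and with the deposited table let-7b (-0.27 log2, adjusted p 0.035) and let-7c (-0.31 log2, adjusted p 0.00675) did. Among the marker lists, only that of smooth muscle was without overlap at 8 weeks. Its 2 miRNAs summed to 1.83 to 2.02 on smoke arrays, against 2.09 to 2.21 on control arrays. The part of these cells in the let-7 values was not tested either.

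At 12 weeks no guide arm passed either, where 5.13% of all miRNAs rose and 4.4% fell, but 4 had groups that did not overlap. let-7b had 3.11, 3.06 and 3.21 on the 3 smoke arrays, against 3.36, 3.51, 3.54 and 3.61 on the 4 control arrays, a difference of -0.38 ± 0.21 log2 (0.77-fold, limma adjusted p 0.249). let-7c, its neighbour on chromosome 15, had 3.60, 3.60 and 3.74 on the smoke arrays, against 3.82, 3.99, 4.00 and 4.11 on the control arrays (-0.33 ± 0.20 log2, adjusted p 0.296). let-7e had 0.81, 0.84 and 1.00 on the smoke arrays and 1.06, 1.10, 1.08 and 1.17 on the control arrays (-0.22 ± 0.19 log2, adjusted p 0.466, and 0.10 log2 with no scaling between arrays). let-7i went the other way, with 2.53, 2.52 and 2.32 on the smoke arrays and 2.16, 2.22, 2.29 and 2.22 on the control arrays (0.23 ± 0.091 log2, adjusted p 0.107). Such separation was common at 12 weeks, with 25.3% of all miRNAs lower and 16.5% higher in smoke without overlap.

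In the fit of all 31 arrays the spread comes from all 8 groups. Without 4 weeks Smoke arrays 2 and 3, still none of the 9 passed at 12 weeks (let-7b adjusted p 0.0668, let-7i 0.0736). In a fit of the 7 arrays of 12 weeks alone, let-7b (adjusted p 0.00986), let-7c (0.0244) and let-7e (0.0263) passed as lower and let-7i (0.0351) as higher, where 20.5% of all miRNAs fell and 13.6% rose. With quantile scaling let-7c (-0.40 log2, adjusted p 0.00651) passed as lower and let-7g (0.17 log2, adjusted p 0.0153) and let-7i (0.30 log2, adjusted p 0.0276) as higher, while with no scaling between arrays let-7b and let-7c were at -0.059 and -0.0094 log2. The remaining members were let-7d at -0.15 ± 0.17, let-7a at -0.15 ± 0.17, let-7f at -0.015 ± 0.13, let-7g at 0.01 ± 0.086 and miR-98 at 0.10 ± 0.12 log2 in the fit of all arrays. 12 weeks Smoke array 3 was also the array on which the liver marker miR-122 was high, at 2.97 in summed scaled level; its let-7b value of 3.21 and its let-7i value of 2.32 were the closest to the control arrays. At this duration the leukocyte miRNAs summed to 6.05 to 7.59 on the smoke arrays, against 8.74 to 10.2 on the control arrays. The multiciliated ones summed to 2.06 to 2.85 on the smoke arrays, against 1.72 to 2.02 on the control arrays. Endothelial miRNAs summed to 28.4 to 30.8 on smoke arrays, against 33.6 to 35.3 on control arrays. Epithelial ones summed to 7.49 to 7.61 on smoke arrays, against 6.94 to 7.41 on control arrays. Erythroid ones summed to 72 to 76.5 on smoke arrays, against 61.9 to 67.3 on control arrays. None of these lists overlapped between the groups, and their part in the let-7 values was not tested.

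**Figure D2:**
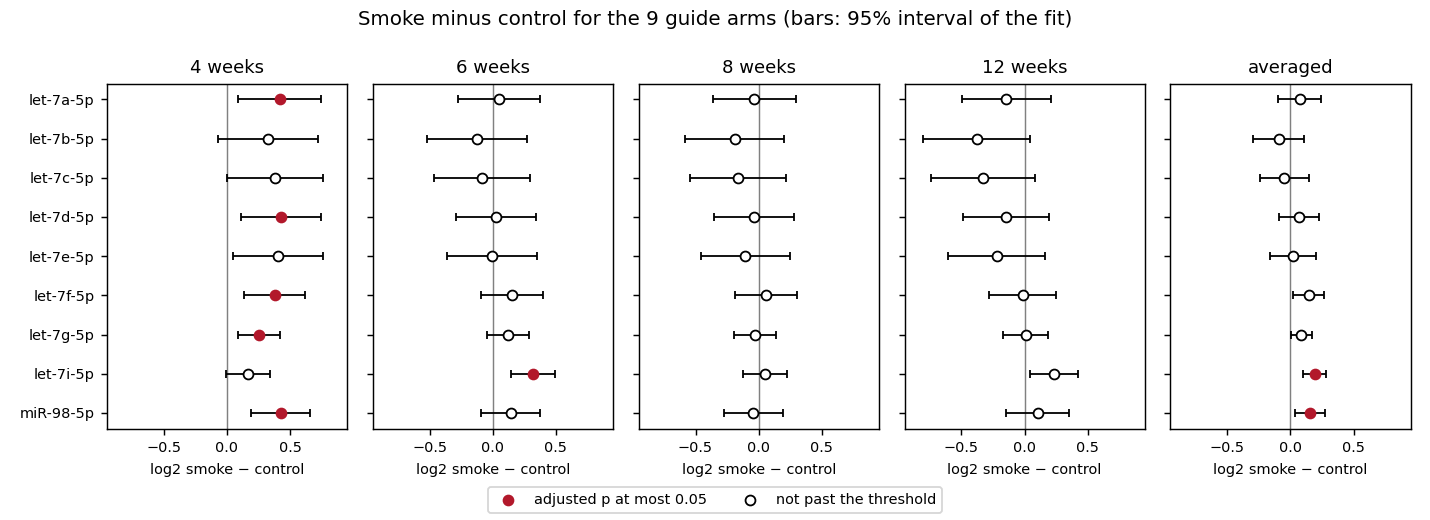
Smoke minus control in log2 for the 9 guide arms at each duration and averaged over durations, with 95% intervals of the limma fit over all 31 arrays. Red points have an adjusted p of at most 0.05, which are 5 at 4 weeks, 1 at 6 weeks and 2 in the average. White points did not pass. let-7b and let-7c lie left of 0 from 6 weeks on, and let-7i lies right of 0 at every duration, though it turned to -0.77 log2 at 8 weeks with no scaling between arrays and to -0.18 log2 at 4 weeks when centred on the family mean.

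Whether the smoke difference itself depended on duration was tested by a moderated F test over the 4 durations. None of the 9 passed (6.96% of all 273 miRNAs did), with limma adjusted p from 0.14 for miR-98 to 0.275 for let-7i, and 1 of the 9, miR-98, had an unadjusted p under 0.05 (0.0493). Differences between durations did not pass for any of the 9 within smoke lungs (3.3% of all miRNAs passed, with miR-98 at an adjusted p of 0.106) or within control lungs (6.96% passed). A larger difference at 4 weeks than later is therefore not shown for any of them by this test, and a p that misses the threshold does not show that the differences are equal.

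The group means of the other members were as follows. let-7a averaged 4.38 ± 0.49, 4.14 ± 0.055, 3.99 ± 0.24 and 4.05 ± 0.078 in smoke lungs at 4, 6, 8 and 12 weeks, against 3.96 ± 0.15, 4.09 ± 0.25, 4.03 ± 0.045 and 4.19 ± 0.062 in control lungs (SD, n = 4 each, 3 in 12 weeks Smoke, as for all that follow). let-7b averaged 3.44 ± 0.58, 3.25 ± 0.06, 3.12 ± 0.29 and 3.13 ± 0.072 in smoke lungs at the same durations, against 3.11 ± 0.23, 3.38 ± 0.30, 3.31 ± 0.048 and 3.51 ± 0.11 in control lungs. let-7c had 4.02 ± 0.57, 3.78 ± 0.055, 3.63 ± 0.27 and 3.65 ± 0.081 in smoke lungs, against 3.63 ± 0.21, 3.86 ± 0.28, 3.79 ± 0.062 and 3.98 ± 0.12 in control lungs. These 3 were widest in 4 weeks Smoke, as was every other member except let-7i. let-7d stood at 2.74 ± 0.42, 2.56 ± 0.071, 2.45 ± 0.28 and 2.49 ± 0.13 in smoke lungs, against 2.31 ± 0.14, 2.53 ± 0.26, 2.48 ± 0.023 and 2.64 ± 0.11 in control lungs. let-7e stood at 1.21 ± 0.52, 0.96 ± 0.16, 0.88 ± 0.26 and 0.88 ± 0.099 in smoke lungs, against 0.80 ± 0.15, 0.97 ± 0.28, 0.98 ± 0.016 and 1.10 ± 0.045 in control lungs. Both were tightest in 8 weeks Control, as were let-7a and let-7b. let-7f was at 4.60 ± 0.36, 4.41 ± 0.032, 4.27 ± 0.17 and 4.34 ± 0.061 in smoke lungs, against 4.22 ± 0.12, 4.25 ± 0.19, 4.21 ± 0.046 and 4.35 ± 0.055 in control lungs. let-7g was at 2.64 ± 0.20, 2.57 ± 0.059, 2.42 ± 0.17 and 2.55 ± 0.046 in smoke lungs, against 2.38 ± 0.087, 2.45 ± 0.071, 2.45 ± 0.058 and 2.54 ± 0.041 in control lungs. miR-98 was at -0.75 ± 0.34, -0.98 ± 0.028, -1.15 ± 0.19 and -0.99 ± 0.036 in smoke lungs, against -1.18 ± 0.085, -1.12 ± 0.16, -1.11 ± 0.093 and -1.10 ± 0.051 in control lungs. 7 of the 9 members had their highest mean in 4 weeks Smoke, let-7b in 12 weeks Control and let-7i in 12 weeks Smoke, and 6 had their lowest in 4 weeks Control. The 7 highest means rest on 4 weeks Smoke arrays 2 and 3. On arrays 1 and 4 each of these 7 members lay below the mean of some other group. let-7a, for example, had 4.01 and 3.94 there, against a mean of 4.19 in 12 weeks Control. Ranked by mean, neighbouring groups lay farther apart than the larger of their SDs in 6 of 63 cases.

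Relative to the mean of the 9 guide arms, let-7b and let-7c lay on one side and let-7f and miR-98 on the other. Each array was centred on the mean of its 9 guide arms, which removes any shift common to them, and all 273 miRNAs were fitted again. Relative to the family mean, let-7b fell by 0.16 ± 0.039 log2 (limma adjusted p 0.00238) and let-7c fell by 0.11 ± 0.036 log2 (adjusted p 0.0127), averaged over durations. let-7f rose by 0.077 ± 0.02 log2 (adjusted p 0.00362) and miR-98 by 0.091 ± 0.028 log2 (adjusted p 0.0107). let-7i was 0.12 ± 0.076 log2 and did not pass, nor did let-7a (0.0057 ± 0.025), let-7d (0.0019 ± 0.027), let-7g (0.021 ± 0.037) and let-7e (-0.048 ± 0.035). So 2 of 9 fell and 2 of 9 rose on this scale, beside 23.1% of all 273 miRNAs that fell and 13.6% that rose. The median over all miRNAs was -0.071 log2.

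All 4 of these relative differences passed with each of the 31 arrays left out: let-7b from -0.18 to -0.14 log2 (adjusted p up to 0.00564), let-7c from -0.13 to -0.098 (up to 0.0249), let-7f from 0.072 to 0.081 (up to 0.00749) and miR-98 from 0.082 to 0.10 (up to 0.0225). Without 4 weeks Smoke arrays 2 and 3, an alternative chosen after seeing the data, let-7b was -0.20, let-7c -0.15, let-7f 0.081 and miR-98 0.099 log2, and let-7i passed as well (0.21 log2, adjusted p 0.00875), beside 22% of all miRNAs that fell and 20.9% that rose. Since the mean of the 9 includes each member, a fall of some and a rise of others on this scale are tied to each other.

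The let-7f values show the size of this contrast. Its log2 value minus the family mean was 1.84, 1.84, 1.87 and 1.81 on the 6 weeks Smoke arrays, against 1.77, 1.73, 1.72 and 1.79 on the 6 weeks Control arrays. At 8 weeks it was 1.79, 1.87, 1.88 and 1.83 in smoke lungs, against 1.71, 1.72, 1.76 and 1.72 in control lungs, and at 12 weeks 1.82, 1.84 and 1.85 in smoke lungs, against 1.78, 1.72, 1.74 and 1.75 in control lungs. The groups did not overlap at these 3 durations, where 11%, 11.4% and 26.7% of all miRNAs lay higher in smoke without overlap, and 14 of 15 smoke arrays lay above the control mean of their duration. At 4 weeks they overlapped, with 1.84, 1.82, 1.85 and 1.91 in smoke lungs and 1.82, 1.82, 1.82 and 1.87 in control lungs.

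For let-7b the same quantity was 0.71, 0.66, 0.69 and 0.69 on the 6 weeks Smoke arrays, against 0.75, 0.78, 1.03 and 0.95 on the 6 weeks Control arrays, and 0.63, 0.60 and 0.64 on the 12 weeks Smoke arrays, against 0.84, 0.89, 0.93 and 0.94 on the 12 weeks Control arrays. Both durations were free of overlap, as 11% and 20.5% of all miRNAs were in that direction. At 8 weeks smoke arrays 2, 3 and 4 lay at 0.60, 0.67 and 0.64 and smoke array 1 at 0.85, against 0.81 to 0.85 on the control arrays. At 4 weeks the smoke arrays ran from 0.46 to 0.92 and the control arrays from 0.58 to 0.81. For let-7b, as for let-7c, 12 of 15 smoke arrays lay below the control mean of their duration.

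miR-98 minus the family mean was -3.58, -3.54, -3.53 and -3.55 on the 6 weeks Smoke arrays, against -3.62, -3.60, -3.68 and -3.61 on the 6 weeks Control arrays. At 12 weeks it was -3.51, -3.47 and -3.52 in smoke lungs, against -3.64, -3.72, -3.74 and -3.70 in control lungs. The groups were apart at these 2 durations, where 11% and 26.7% of all miRNAs lay higher in smoke without overlap, and overlapped at 4 and 8 weeks. For miR-98, 14 of 15 smoke arrays lay above the control mean of their duration. At 12 weeks such separation on this scale was common, in the family and over all miRNAs, of which 20.5% lay lower and 26.7% higher without overlap. let-7a, let-7b, let-7c and let-7e lay lower and let-7f, let-7g, let-7i and miR-98 higher in smoke without overlap, and only let-7d overlapped. Centring on the mean of the same members ties these falls and rises to each other. By duration, the fit called let-7b (-0.28 ± 0.083 log2, adjusted p 0.0218), let-7c (-0.23 ± 0.076, adjusted p 0.0406) and miR-98 (0.20 ± 0.059, adjusted p 0.0199) at 12 weeks, beside 6.59% of all miRNAs lower and 6.96% higher, and none of the 9 at the other durations. Each was lost without 12 weeks Smoke array 1 or 2 or 12 weeks Control array 3, and also without control array 4 (let-7b and let-7c) or control array 2 (let-7c and miR-98), with adjusted p up to 0.134.

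**Figure D3:**
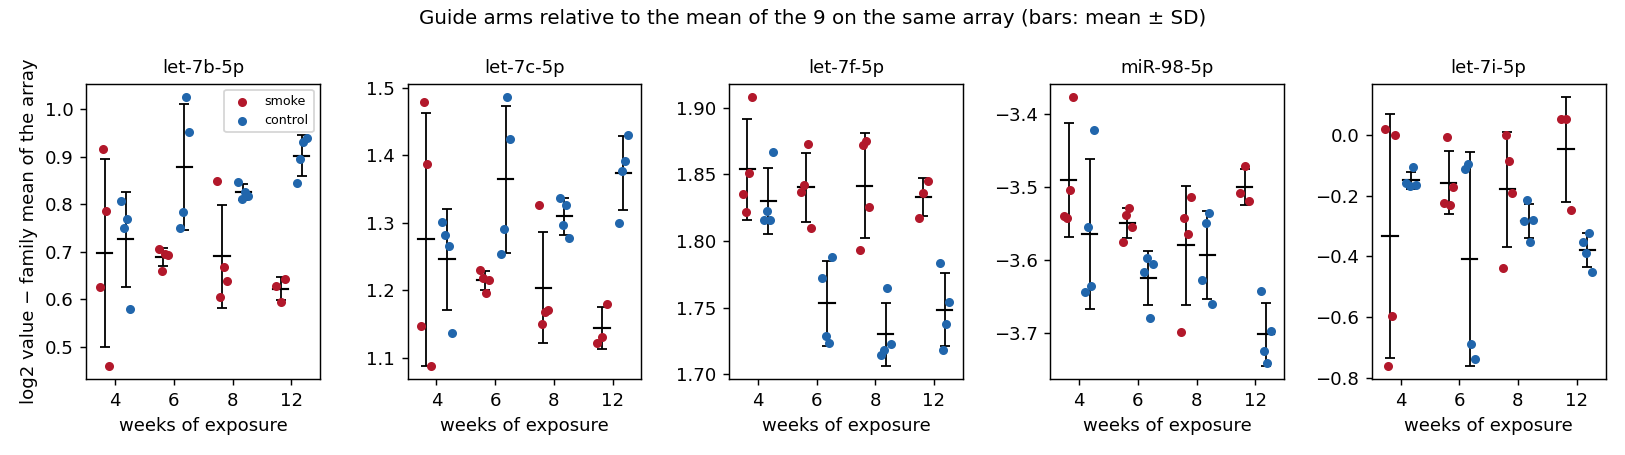
Log2 value minus the mean of the 9 guide arms on the same array, against weeks of exposure, for the 4 members whose averaged relative difference passed and for let-7i. Points are arrays, smoke in red left of control in blue, and black bars are the mean and SD of a group. let-7f lies higher and let-7b and let-7c mostly lower in smoke lungs from 6 weeks on, and the 4 weeks groups overlap in the 4 members.

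The members that fell relative to the family mean, let-7b and let-7c, hold 10 and 9 G or C bases, and those that rose, let-7f and miR-98, hold 7 each. let-7d, let-7e and let-7i, with 9, had relative differences of 0.0019, -0.048 and 0.12 log2. The part of base composition in these differences was not tested. The 2 probes of a member gave the same sign for 9 of 9 members in the averaged comparison, 9 of 9 at 4 weeks, 8 of 9 at 6 weeks, 9 of 9 at 8 weeks and 8 of 9 at 12 weeks, and the largest gap between them was 0.11 log2, for let-7f at 12 weeks. Probes for sequences that differ by 1 base can bind each other's target, and cross-hybridisation was not tested.

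Pairs of members were compared by the SD of their log2 ratio over the 31 arrays, a description with no test. A small value means that the ratio stayed nearly constant, because both went up and down together or because both varied little. The SD of a member alone ran from 0.13 log2 for let-7g and 0.16 for let-7i to 0.28 for let-7b. let-7b and let-7c were the closest of the 36 pairs, at 0.041 log2; their sequences differ by 1 base and genes for both lie on chromosome 15. let-7f and miR-98, which differ by 3 bases and share the X-chromosome gene pair, followed at 0.059 log2. let-7a and let-7d, from the cluster on chromosome 13, came next at 0.063 log2, ahead of let-7a with let-7e (0.069) and let-7a with let-7f (0.075), each 1 base apart. The median pair had 0.13 log2. All 8 pairs with let-7i lay at 0.15 or above, up to 0.34 log2 with let-7b.

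By this SD, let-7i and let-7g were nearer to miRNAs outside the family than to other members. These 2 also varied least on their own (SD 0.16 and 0.13 log2), so small values with them need not mean a shared pattern. The 3 miRNAs closest to let-7i among the 206 others detected on every array were miR-185-5p (0.095 log2), miR-429-3p (0.11) and miR-20a-5p (0.13), and none of its nearest 8 was a let-7 guide arm. Those closest to let-7g were miR-199a-3p (0.051), miR-26b-5p (0.065) and miR-221-3p (0.076). For let-7a, let-7c, let-7e and miR-98, the 3 closest were all family members. let-7b, let-7d and let-7f each had 2 family members and then miR-30c-2-3p (0.10), miR-200b-3p (0.075) and miR-26b-5p (0.083) in that order. The arrays share 4 slides and 1 rule of scaling, so the SDs hold array effects as well as those of the lungs.

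**Figure D4:**
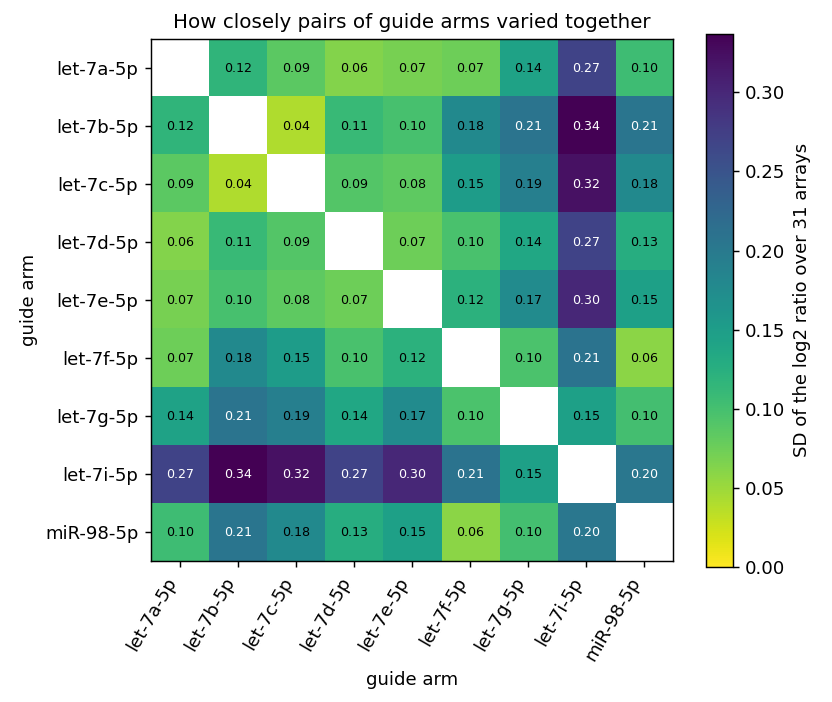
SD of the log2 ratio of each pair of guide arms over the 31 arrays, in log2, darker where the ratio varied more. let-7b with let-7c (0.041) and let-7f with miR-98 (0.059) are the lightest cells, and the row of let-7i is the darkest, at 0.15 to 0.34.

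Of the miRNAs made from genes beside let-7 genes, 5 were on the array and all were tested: miR-99a, miR-99b, miR-100, miR-125a and miR-125b, all as -5p arms. None passed in the averaged comparison or at 6 or 12 weeks. At 4 weeks 1 rose, miR-99b-5p (0.44 ± 0.16 log2, limma adjusted p 0.0327), and none fell, beside 28.2% of all miRNAs that rose. Its value without 4 weeks Smoke arrays 2 and 3 is not given here, and 6.23% of all miRNAs rose without them. At 8 weeks 2 fell, miR-100-5p (-0.44 ± 0.13 log2, adjusted p 0.0215) and miR-99a-5p (-0.43 ± 0.12 log2, adjusted p 0.0216), where let-7c (-0.16 ± 0.18) and let-7a (-0.035 ± 0.16), made beside them, did not pass. In that comparison 7.33% of all miRNAs fell.

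Of the passenger arms, the opposite strands of the same hairpins, 7 were on the array and 4 were detected often enough to be tested: let-7a-1-3p, let-7b-3p, let-7d-3p and let-7f-1-3p. let-7a-1-3p fell in the averaged comparison (-0.27 ± 0.068 log2, limma adjusted p 0.00267) and at 6 weeks (-0.47 ± 0.13 log2, adjusted p 0.024). There let-7a-5p, which Mirlet7a-2 also makes, stood at 0.072 ± 0.081 and 0.051 ± 0.16 log2. The 3′ arms of the Mirlet7a-1 and Mirlet7c-2 hairpins share a run of bases, so this entry may read the passenger arms of both. let-7c-5p stood at -0.048 ± 0.094 and -0.084 ± 0.18 log2. A difference between the 2 arms of 1 hairpin is therefore not shown. The other 3 did not pass in any comparison. Of all miRNAs, 12.1% fell in the average and 0.366% at 6 weeks.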

How the data were processed

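Total RNA of lung carried a Cy3 label on Agilent 1-colour arrays of mouse miRNAs, per the labels' protocols. Spots were measured by Feature Extraction 10.7.3.1, per the file headers, and the processed signal intensity used here is background-corrected by that scanner software before the authors deposited it. The authors also deposited a log2 value table (array medians 2.71 to 2.85), whose normalization the sources used here do not state; it served as an alternative, and per array its values correlated with the scaled scanner values at 0.976 to 0.983.

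Control spots and outlier-flagged spots (297 to 655 per array) were left out, spots of a probe averaged, and each probe divided by its array's 75th percentile, taken from the 385 probes found above background on all 31 arrays. Values below the scaled floor of -6.74 log2 were set to it, log2 was taken and the brightest probe stood for a miRNA. A miRNA was tested when a probe was detected (at least 50% of its spots above background) on at least 75% of a group's arrays, which left 273, 207 of them detected on every array. limma 3.58.1 (R 4.3.3) fitted 1 mean per group over all 31 arrays, with 23 residual degrees of freedom and Benjamini-Hochberg adjustment over the 273. The number of arrays limits the precision. The fit was tested on simulated data.

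Arrays lie on 4 slides of 8, scanned on 1 day. All 9 guide arms are named in every comparison, with the miRNAs encoded beside let-7 genes and the passenger arms. For each member, the 3 miRNAs with the smallest SD of the log2 ratio to it are named. Members and lists were chosen with earlier results of these data known. Alternatives changed scaling, background correction, probe summary, source, filter, floor, block and the arrays used. Background correction by normexp (offset 50) used median signals, since no mean signal column is in the files used. Leaving out both 4 weeks Smoke arrays 2 and 3 on the family-centred scale, and averaging over 6, 8 and 12 weeks, were chosen after seeing the data.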

Additional observations from a re-analysis of the deposited data

Results flagged for a closer look

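For let-7a-5p in 8 weeks Control, array 4 was the lowest at 3.96 log2, with the other 3 arrays at 4.04 to 4.06. Its gap to the nearest of them was 0.853 of the group's range, above the critical value of 0.829. It was the 1 such case among the 63 groups of 4 arrays looked at over the 9 guide arms, where chance marks about 1 in 20.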

How the results depend on the processing

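The alternatives other than leaving out 1 array gave 774 values of single guide arms. Of these, 666 kept their side of the threshold, 63 lost a call, 42 gained one and 3 with a call were reversed. Among the 666, 65 without a call changed sign. The cause was not tested. With no scaling, let-7f (-0.76 log2, adjusted p 0.00739) and let-7i (-0.77, adjusted p 0.0425) at 8 weeks were reversed, and centred on the family mean let-7g at 4 weeks was (-0.10, adjusted p 0.27). Against 2 guide arms called in the average, 5 at 4 weeks, 1 at 6 weeks and 0 elsewhere, the following counts moved by over 1.5 times. The 75th percentile over all probes gave 0 at 6 weeks and 2 for durations among controls. Quantile scaling gave 4 in the average (2 higher, 2 lower), 1 at 4 weeks, 1 at 8 weeks, 3 at 12 weeks and 1 for durations among smoke. No scaling gave 0 in the average and at 4 and 6 weeks, 9 at 8 weeks, and 7 for both the interaction and durations among controls. Family centring gave 4 in the average, 0 at 4 and 6 weeks and 3 at 12 weeks, and 5 in the average also without 4 weeks Smoke arrays 2 and 3. The normexp correction gave 0 in the average and at 6 weeks. The scanner's summed signal gave 1 in the average, 1 at 4 weeks and 0 at 6 weeks. The deposited table gave 6 in the average (4 higher, 2 lower), 3 at 4 weeks, 2 lower at 8 weeks, 1 at 12 weeks and 2 for durations among smoke. No detection filter gave 1 in the average and 3 at 4 weeks, and a floor 4 times higher 1 in the average. Only the groups compared gave 0 at 4 and 6 weeks and 4 at 12 weeks. Leaving out 4 weeks Smoke arrays 2 and 3, or the 3 arrays high in muscle miRNAs, gave 0 at 4 weeks. Averaging over 6, 8 and 12 weeks gave 1, and the dimmer probe 1 at 12 weeks. Smaller moves were 4 at 4 weeks with normexp, the higher floor and either block, and 3 in the average with the mean of all probes and with the dimmer probe. Equal counts could hold other members: in the average the percentile over all probes called let-7f (0.16 log2, adjusted p 0.00857) and miR-98, not let-7i, and leaving out 4 weeks Smoke arrays 2 and 3 called let-7i and, as lower, let-7b. At 6 weeks quantile scaling called let-7c as lower (-0.39 log2, adjusted p 0.00717), not let-7i.

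Replicate numbers did not pair the arrays throughout: same-numbered arrays correlated at -0.467 to 0.541, with 9 of 15 over 0.1. Number and slide coincide at 4, 6 and 8 weeks. All 4 pairs of 4 weeks were over 0.1 (0.115 to 0.38), while the lowest pairs of 6 and 8 weeks were at -0.00336 and -0.0292. Same-slide arrays correlated at -0.0457 to 0.541, with 10 of 15 over 0.1. The replicate block gave 1 guide arm in the average, let-7i (0.19 log2, adjusted p 0.000493), as did slide as a block, and miR-98 had an adjusted p of 0.0582. With 1 array left out, the called guide arms numbered 1 to 4 in the average, 1 to 8 at 4 weeks, 0 to 1 at 6 weeks, 0 to 0 at 8 and at 12 weeks, 0 to 3 for the interaction, 0 to 1 for durations among smoke and 0 to 0 for durations among controls. Over all 273 miRNAs the calls numbered 75 in the average (12 to 117 over alternatives, 70 to 90 with 1 array left out), 108 at 4 weeks (4 to 106, and 37 to 150), 22 at 6 weeks (2 to 33, and 15 to 32), 30 at 8 weeks (3 to 202, and 22 to 41), 26 at 12 weeks (4 to 93, and 18 to 39), 19 for the interaction (0 to 135, and 10 to 67), 9 for durations among smoke (0 to 21, and 5 to 44) and 19 for durations among controls (3 to 150, and 7 to 43). The median difference of all miRNAs, -0.0048 in the average, 0.17 at 4 weeks, -0.047 at 8 weeks and -0.075 at 12 weeks, became -0.15, 0.093, -0.86 and 0.20 in that order with no scaling, -0.14, -0.76, 0.22 and -0.18 with normexp, and -0.11, 0.10, -0.16 and -0.13 with the summed signal; it was 0.064, 0.065 and -0.18 at 4 weeks with the percentile over all probes, quantile scaling and family centring, and 0.041 at 12 weeks with the percentile over all probes. All 9 guide arms lay above background on every array, and miR-98 was the 1 whose 4-week call normexp ended (0.14 log2, adjusted p 0.461).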
